A study of Rattus norvegicus with 6 samples.

Results

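Transcripts of 10 enzymes that make the characteristic lipids of myelin were followed in cultured rat oligodendrocyte precursor cells, with or without fibrils of alpha-synuclein. They are Ugt8 and Gal3st1 (galactolipid synthesis), Fa2h (fatty acid hydroxylation), Sptlc2, Cers2 and Degs1 (ceramide synthesis), Elovl1 and Elovl7 (fatty acid elongation), Fasn (fatty acid synthesis) and Aspa (breakdown of N-acetylaspartate). Each symbol matched 1 row of the deposited table, so the set is 10 of 32662 genes. Of the 10, 9 were among the 10766 genes tested, those that reached 1 FPKM in 3 or more libraries. All 6 libraries reached 1 FPKM for 8 of these 9 and 5 libraries did for Elovl7. Aspa reached it in 2 fibril libraries only and was not tested. FPKM gives fragments per kilobase of transcript, relative to mapped fragments of the library, so levels of different genes can be set side by side.

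The donor animals were Sprague-Dawley rats of 1 to 2 days, and the tissue was cerebral cortex in both groups. Mixed glia were grown with 20% serum, and the non-adherent precursor cells were kept for 4 to 5 days in Neurobasal medium with 2% B27 supplement, 10 ng/ml PDGF and 10 ng/ml FGF. The fibril group (3 libraries) met preformed fibrils, made of human alpha-synuclein, during 72 hours, and the control group (3 libraries) had none. Separate cultures or animals behind the libraries are not stated, and p-values therefore cover the spread among libraries, possibly technical, and no more.

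Myelin membrane is unusually rich in galactosylceramide and its sulfated form, sulfatide. Ceramide is built in the endoplasmic reticulum from serine and palmitate, with very long acyl chains supplied by elongases and often 2-hydroxylated by FA2H. UGT8 then adds galactose, and GAL3ST1 adds sulfate in the Golgi. Oligodendrocytes express these enzymes as they leave the precursor state, and galactosylceramide and sulfatide serve as surface markers of the maturing cell.

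Replicate 1 of both groups stood apart from the other libraries. Mitochondrial genes held 80.3% and 75.6% of its FPKM total in the control and fibril library, against 12.0% to 40.1% elsewhere. Fragment numbers are not known, but the steps between low values put the worth of 1 fragment in control replicate 1 and fibril replicate 1 at 4.98 and 8.51 times that in control replicate 3. In the other libraries it was 1.24 to 2.41 times. The labelled cell type was checked against 9 precursor markers, all above 0 in every library, which summed to 1523 to 2496 FPKM in controls and 1211 to 1427 FPKM with fibrils. Bulk RNA cannot tell fewer cells of a type from less RNA per cell.

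Galactolipid and hydroxylation enzymes had the largest differences of the set on the log2(FPKM + 1) scale, fibril minus control. Ugt8, Gal3st1, Fa2h and Elovl1 had mean levels 2.42 to 2.65 times as high with fibrils as in controls, while Sptlc2, Degs1 and Fasn had ratios of 0.921, 1.27 and 0.690. Over the 9 tested enzymes the median difference was 0.78, beside -0.04 over all tested genes. Of the 9, 7 were positive, beside 47% of all tested genes. Members were chosen with earlier results of these data known, so the choice alone can place them above all tested genes. By limma with Benjamini-Hochberg adjustment over all genes, 0 of 9 passed an adjusted p of 0.05, as did 0% of all tested genes in either direction. With the replicate number as a block, again 0 of 9 passed, where 0.111% of all tested genes rose and 0% fell. At an unadjusted p under 0.05, 3 of 9 were higher without the block (Ugt8, Fa2h and Elovl1; 2.21% of all tested genes were higher at that level) and 5 of 9 with it (Gal3st1 and Cers2 in addition; 4.87%). The count of 3 was 0 without control replicate 2 (1.65% of all tested genes) and 1 without fibril replicate 3 (1.52%). It was 1 when libraries were scaled without mitochondrial genes (1.27%). It was 2 without control replicate 1 (3.43%) and without fibril replicate 2 (2.47%), and 4 without fibril replicate 1 (2.92%). It was again 3 without control replicate 3 (1.37%) and with replicates 2 and 3 only (3.50%). The members' median was 0.48 without control replicate 1, 0.45 without fibril replicate 3 and 1.25 without fibril replicate 1. At an unadjusted p under 0.05, 0 of 9 were lower in either fit, beside 1.81% of all tested genes without the block and 4.97% with it.

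**Figure D1:**
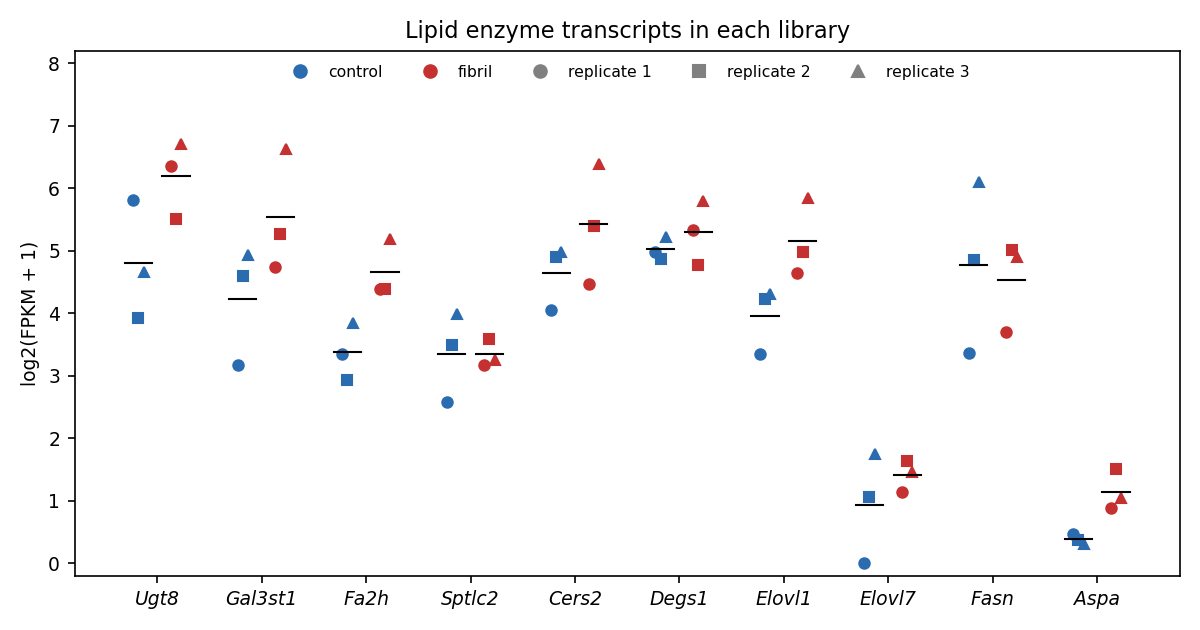
Level of each enzyme transcript, as log2(FPKM + 1), in the 3 control libraries (blue) and 3 fibril libraries (red); marker shape gives the replicate number and black bars the group means. The groups do not overlap for Fa2h, Elovl1 and Aspa, and overlap for the other 7.

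Ugt8 encodes the ceramide galactosyltransferase that commits ceramide to galactosylceramide (chromosome 2, 229644381 to 229718659 in the table's coordinates). Its level was 55.2, 14.2 and 24.3 FPKM in control replicates 1, 2 and 3, and 81.2, 44.5 and 103 FPKM in the fibril libraries. Every fibril library was above the control of the same number, but control replicate 1 lay above fibril replicate 2, so the groups overlapped. The log2 difference was 1.39 (SE 0.56; limma adjusted p = 0.96, and 0.341 with the block). Within replicate numbers 1, 2 and 3 it was 0.55, 1.58 and 2.04.

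Gal3st1 encodes the sulfotransferase that turns galactosylceramide into sulfatide (chromosome 14, 84231638 to 84247369). Controls gave 8.02, 23.2 and 29.4 FPKM, and fibril libraries gave 25.8, 37.4 and 97.4 FPKM. Fibril replicate 3 was far above the rest, control replicate 1 far below, and fibril replicate 1 lay between control replicates 2 and 3. The log2 difference was 1.31 (SE 0.63; limma adjusted p = 0.96, and 0.309 with the block). It was 0.77 without fibril replicate 3 and 1.71 without fibril replicate 1.

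Fa2h encodes the fatty acid 2-hydroxylase behind the hydroxylated galactolipids of myelin (chromosome 19, 43545377 to 43596801). Control libraries had 9.22, 6.60 and 13.4 FPKM and fibril libraries 19.8, 19.9 and 35.5 FPKM, so the lowest fibril value was above the highest control. Scaled without mitochondrial genes, the Fa2h difference was 0.98. Its SE with the block was then 0.327, above those of Cers2 (0.261), Degs1 (0.264), Elovl1 (0.285), Gal3st1 (0.293) and Ugt8 (0.302). Those of Elovl7, Sptlc2 and Fasn were larger (0.448, 0.465 and 0.472). With the deposited scaling the Fa2h difference was the steadiest of the set, at 1.03, 1.46 and 1.34 within replicate numbers. Over all libraries it was 1.28 (SE 0.43), with the smallest unadjusted p of the 9 (0.0155, rank 149 of 10766 genes; limma adjusted p = 0.96, and 0.251 with the block).

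RefSeq gives a promoter window for 9 of the 10 enzymes, 250 bases before to 50 after the annotated start, in build GRCr8. Fasn had no entry. The windows of Ugt8 (chr2:217007118-217007417), Gal3st1 (chr14:83094135-83094434) and Fa2h (chr19:56273431-56273730) are shown as those of the galactolipid and hydroxylation enzymes. Those of Elovl7 (chr2:41562612-41562911) and Aspa (chr10:58438988-58439287) are shown as the members with the lowest levels. The annotated start of Elovl7 falls on the letters ATG, which open a reading frame without a stop to the end of the window. The Elovl7 window may therefore lie at a coding exon and not at a promoter. Ugt8, Fa2h and Aspa are on the minus strand and the others on the plus strand, each printed 5′ to 3′ along the gene. Capitals mark matches to any of 7 motifs, searched on both strands. The GC box was searched as GGGCGG. The NF-Y type motif was CCAAT. The TATA box was TATAAA. A first SOX type motif was ACAAAG. The second was ACAATG. SREBP type motifs were TCACNCCAC, and, as an E-box, CACGTG.
Ugt8: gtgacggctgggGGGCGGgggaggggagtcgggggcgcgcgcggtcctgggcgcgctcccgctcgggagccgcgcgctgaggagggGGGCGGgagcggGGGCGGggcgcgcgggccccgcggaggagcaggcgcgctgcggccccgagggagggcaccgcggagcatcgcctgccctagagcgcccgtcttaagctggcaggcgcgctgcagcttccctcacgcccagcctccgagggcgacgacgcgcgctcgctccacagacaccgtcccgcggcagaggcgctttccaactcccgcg
Gal3st1: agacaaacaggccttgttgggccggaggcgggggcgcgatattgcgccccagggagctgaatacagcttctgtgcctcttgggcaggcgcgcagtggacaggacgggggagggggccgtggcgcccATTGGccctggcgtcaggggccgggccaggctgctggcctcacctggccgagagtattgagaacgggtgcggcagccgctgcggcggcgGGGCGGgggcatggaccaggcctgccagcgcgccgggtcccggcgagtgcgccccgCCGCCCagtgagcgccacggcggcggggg
Fa2h: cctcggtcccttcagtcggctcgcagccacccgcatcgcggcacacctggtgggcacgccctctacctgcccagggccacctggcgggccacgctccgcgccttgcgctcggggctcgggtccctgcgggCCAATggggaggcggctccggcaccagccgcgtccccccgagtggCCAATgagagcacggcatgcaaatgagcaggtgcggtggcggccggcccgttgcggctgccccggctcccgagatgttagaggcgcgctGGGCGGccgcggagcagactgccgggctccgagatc
Elovl7: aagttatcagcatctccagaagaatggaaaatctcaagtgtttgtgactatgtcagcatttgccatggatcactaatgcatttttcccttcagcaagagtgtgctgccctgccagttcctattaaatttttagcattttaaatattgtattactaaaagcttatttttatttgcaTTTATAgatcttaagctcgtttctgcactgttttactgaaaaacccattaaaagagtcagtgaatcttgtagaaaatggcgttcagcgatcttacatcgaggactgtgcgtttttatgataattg
Aspa: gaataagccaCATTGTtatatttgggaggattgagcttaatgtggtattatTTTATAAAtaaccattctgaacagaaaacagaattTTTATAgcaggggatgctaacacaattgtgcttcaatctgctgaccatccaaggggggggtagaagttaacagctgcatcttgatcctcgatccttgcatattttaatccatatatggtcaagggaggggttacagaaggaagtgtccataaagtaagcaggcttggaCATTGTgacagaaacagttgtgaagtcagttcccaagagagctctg

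The 3 galactolipid windows were GC-rich, with 79.3% (Ugt8), 74.7% (Gal3st1) and 74.3% (Fa2h) G and C, where the median of 33469 RefSeq promoter windows of this length was 51.7%. Cers2 (76.0%), Degs1 (66.3%), Sptlc2 (61.7%) and Elovl1 (52.7%) were also above that median. Elovl7 and Aspa had 35.0% and 40.3%, and the Elovl7 window may not be a promoter. The GC box letters GGGCGG occurred in 6 of the 9 windows (Ugt8, Gal3st1, Fa2h, Cers2, Sptlc2 and Degs1), beside 33.1% of all windows, and CCAAT in 4 of 9 (Gal3st1, Fa2h, Cers2 and Sptlc2), beside 37.5%. TATAAA was found in 2 of 9 (Elovl7 and Aspa), beside 14.2% of all windows, and its forward and reverse matches overlap in Aspa. ACAAAG was found in Elovl1 and ACAATG in Aspa, beside 18.8% and 13.2% of all windows. The SREBP-type letters TCACNCCAC and CACGTG had no match in the 9 windows and were present in 1.12% and 6.42% of all windows. A match is a description of letters and does not show that a factor binds there.

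Ceramide synthesis enzymes had smaller estimates, from -0.0099 (Sptlc2) to 0.78 (Cers2), and differences between enzymes were not tested. Cers2, the ceramide synthase that prefers very long acyl chains (chromosome 2, 196487655 to 196527127), was measured at 15.7, 28.8 and 30.5 FPKM without fibrils and 21.2, 41.3 and 82.9 FPKM with them. Its groups overlapped through fibril replicate 1, although each fibril library was above the control of the same number. The log2 difference of 0.78 (SE 0.55; limma adjusted p = 0.96, and 0.498 with the block) was 0.29 without fibril replicate 3 and 1.25 without fibril replicate 1.

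Degs1 encodes the desaturase that completes ceramide (chromosome 13, 100666074 to 100672731), and it was the most even of the set across controls. Control levels were 30.7, 28.2 and 36.2 FPKM and fibril levels 39.4, 26.4 and 54.6 FPKM, so the lowest value of all was in a fibril library. Its log2 difference was 0.28, with a 95% interval from -0.64 to 1.20 by limma, and became -0.025 when libraries were scaled without mitochondrial genes. Sptlc2 encodes a subunit of serine palmitoyltransferase, the entry enzyme of sphingolipid synthesis (chromosome 6, 111339135 to 111417954). Control libraries had 5.00, 10.2 and 14.8 FPKM and fibril libraries 8.05, 11.0 and 8.56 FPKM, all fibril values within the control range. The log2 difference of -0.0099 had a 95% interval from -1.03 to 1.01. These intervals do not show that the levels were alike.

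Of the elongases, Elovl1 and Elovl7 were at very different levels. Elovl1 extends saturated acyl chains to the very long lengths found in myelin sphingolipids (chromosome 5, 137255870 to 137260481). Control libraries had 9.20, 17.7 and 18.8 FPKM and fibril libraries 23.9, 30.5 and 56.4 FPKM, so the groups did not overlap. The log2 difference was 1.19 (SE 0.47; limma adjusted p = 0.96, and 0.331 with the block), and 0.84 without fibril replicate 3. Elovl7, another elongase of long acyl chains (chromosome 2, 40373210 to 40386669), was listed at 0 in control replicate 1 and had 1.08 and 2.35 FPKM in the other controls. With fibrils it had 1.20, 2.10 and 1.76 FPKM, below control replicate 3 in every library. Its log2 difference of 0.48 (SE 0.49) became 1.40 with a pseudocount of 0.1 and 0.01 without control replicate 1. In fibril replicate 1 the value rested on 0.0601 times as many fragments as in control replicate 3.

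Aspa and Fasn supply building blocks. Aspa encodes aspartoacylase, which frees acetate from N-acetylaspartate for lipid synthesis in oligodendrocytes (chromosome 10, 59867780 to 59892708). Its level was low throughout, at 0.385, 0.290 and 0.237 FPKM without fibrils and 0.839, 1.83 and 1.05 FPKM with them, and the groups did not overlap. The ratio of means was 4.08, the highest of the set, but the log2(FPKM + 1) difference was 0.76, since the added 1 damps low values. Without the filter on low values, where Aspa could be tested, its unadjusted limma p was 0.0117 and its adjusted p 0.912. Fragments behind the Aspa value in control replicate 1 were 0.327 times as many as in control replicate 3.

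Fasn, the fatty acid synthase that makes palmitate (chromosome 10, 109987734 to 110005901), varied more among controls than any other member with values above 0 in all. Control levels were 9.33, 27.8 and 67.5 FPKM, a 7.23-fold range, and fibril levels 12.0, 31.2 and 29.0 FPKM. Fibril values lay within the control range. The log2 difference of -0.23 (SE 0.69; 95% interval -1.80 to 1.34) became 0.43 without control replicate 3, and it was 0.33, 0.16 and -1.19 within replicate numbers 1, 2 and 3.

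**Figure D2:**
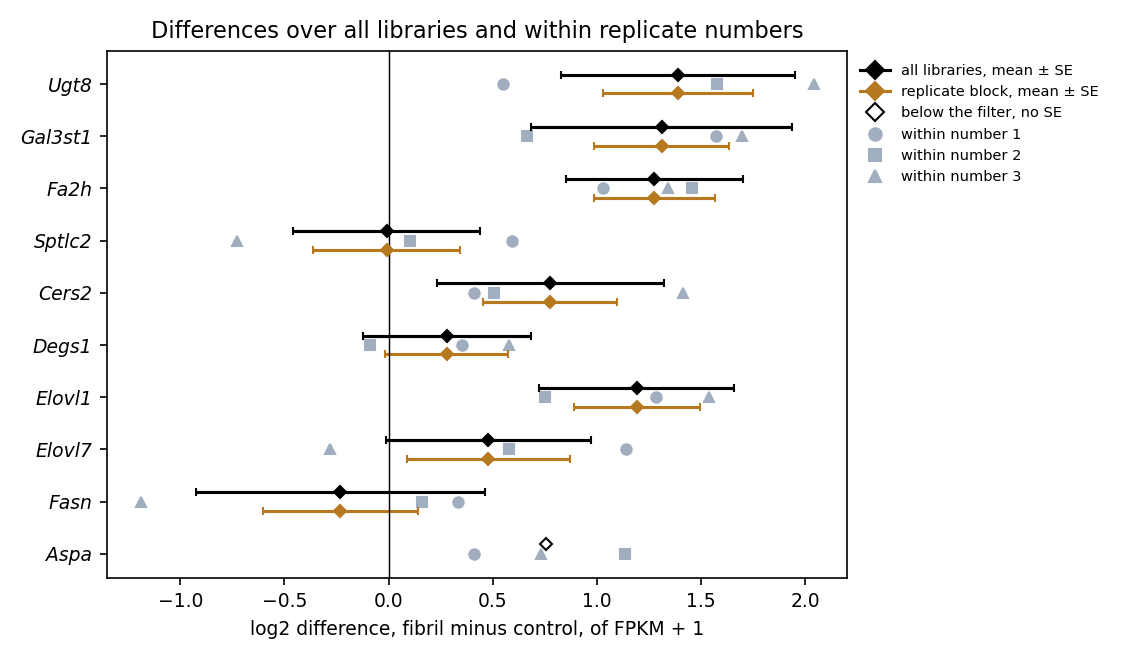
Log2 difference of FPKM + 1, fibril minus control, for each enzyme: black and ochre diamonds are the estimates without and with the replicate block, bars are ± SE, and grey markers are differences within each replicate number. All 3 grey markers are above 0 for Ugt8, Gal3st1, Fa2h, Cers2, Elovl1 and Aspa, and on both sides of 0 for Sptlc2, Degs1, Elovl7 and Fasn; the open diamond (Aspa) had no fit.

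Among the 9 tested enzymes 2 had all fibril libraries above all controls (Fa2h and Elovl1), where 4.24% of all tested genes did so, and 0 had them all below (5.3%). Of the 9, 5 were higher in 3 of 3 replicate numbers, beside 16.9% of all tested genes. Lower in all 3 were 0 of 9, beside 19.3%. The choice of members with earlier results known limits these comparisons too. Which enzymes overlapped changed with the scaling. After libraries were rescaled to equal totals without mitochondrial genes, Ugt8 no longer overlapped between groups (highest control 48.4, lowest fibril 50.6), and Aspa, as before, did not. Fa2h (18.1 and 16.3) and Elovl1 (25.3 and 19.6) then did. That scaling moved the median of all tested genes to -0.30 and the members' median to 0.47.

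In order of mean control level the enzymes were Fasn (34.9 ± 29.7 FPKM, SD, n = 3), Degs1 (31.7 ± 4.13), Ugt8 (31.3 ± 21.3), Cers2 (25.0 ± 8.13), Gal3st1 (20.2 ± 11.0), Elovl1 (15.2 ± 5.27), Sptlc2 (10.0 ± 4.91), Fa2h (9.75 ± 3.44), Elovl7 (1.14 ± 1.18) and Aspa (0.304 ± 0.0751). From Fasn to Fa2h, and again for Elovl7 and Aspa, the library values of neighbours in this order overlapped. With fibrils the order began with Ugt8 (76.3 ± 29.6), Gal3st1 (53.5 ± 38.5), Cers2 (48.4 ± 31.5), Degs1 (40.1 ± 14.1) and Elovl1 (36.9 ± 17.2). Fa2h (25.1 ± 9.04) and Fasn (24.1 ± 10.5) followed, then Sptlc2 (9.21 ± 1.60), Elovl7 (1.69 ± 0.455) and Aspa (1.24 ± 0.524). From Ugt8 to Fasn the library values of neighbours overlapped, as did those of Elovl7 and Aspa, while the highest Sptlc2 value (11.0) was under the lowest Fasn value (12.0). Fasn was thus the first in mean control level and the seventh with fibrils. Among genes above 0 in the same library, Ugt8 stood at percentile 89.2, 71.9 and 81.3 in the controls and 91.5, 90.2 and 93.5 in the fibril libraries. Gal3st1 stood at 54.9, 81.5 and 84.6 and at 78.1, 88.4 and 93.2.

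Enzymes that act on the same lipid did not keep a fixed ratio between libraries. The Gal3st1 level was 0.145, 1.63 and 1.21 times that of Ugt8 in control replicates 1, 2 and 3, and 0.318, 0.840 and 0.944 times with fibrils. Both replicate 1 libraries had the lowest ratios, and the whole range was 11.2-fold. Such a ratio does not depend on how a library is scaled. The group difference in its log2 was -0.06 (exact two-sided permutation p = 1, adjusted 1 over 4 ratios; 3 libraries against 3 cannot go below 0.1). It was 1.13, -0.96 and -0.36 within numbers 1, 2 and 3, and from -1.15 without control replicate 1 to 0.59 without control replicate 2. Fa2h to Ugt8 was 0.167, 0.464 and 0.552 in controls and 0.244, 0.447 and 0.344 with fibrils, a log2 difference of -0.06 (exact permutation p = 0.9, adjusted 1), and from -0.59 without control replicate 1 to 0.27 without control replicate 3. Cers2 to Degs1, the chain-selecting synthase against the desaturase, was 0.510, 1.02 and 0.842 against 0.537, 1.56 and 1.52. It was higher with fibrils in 3 of 3 replicate numbers by 0.07, 0.62 and 0.85 on the log2 scale, with overlapping groups (difference 0.51, exact permutation p = 0.5, adjusted 1). That difference was 0.23 without control replicate 1 and 1.02 without fibril replicate 1. Aspa to Ugt8 had a log2 difference of 0.55 (exact permutation p = 0.5, adjusted 1), which was -0.12 without fibril replicate 2 and 0.98 without control replicate 2. Elovl7 to Elovl1 was 0 in control replicate 1 and 0.0311 to 0.125 elsewhere, and was not tested.

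**Figure D3:**
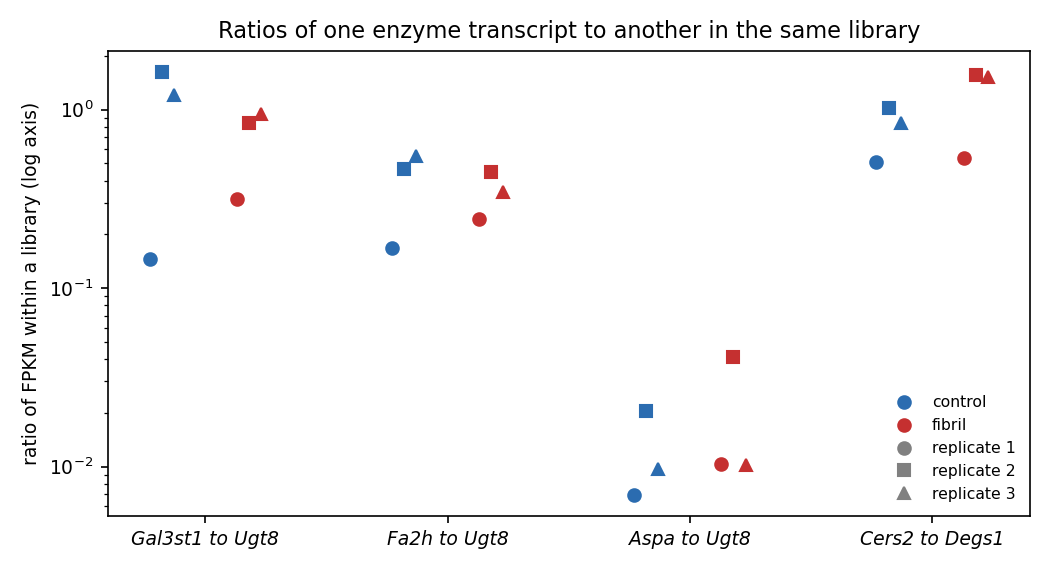
Ratio of the FPKM of one enzyme to that of another in the same library, on a log axis, for 3 control (blue) and 3 fibril (red) libraries with marker shape by replicate number. The Gal3st1 to Ugt8 ratio is lowest in both replicate 1 libraries (0.145 and 0.318) and 0.840 to 1.63 in the other 4.

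Levels of the members also differed between replicate numbers. Replicate 1 minus the mean of replicates 2 and 3, averaged over both groups on the log2(FPKM + 1) scale, was 0.89 for Ugt8, the only member above 0. It was -1.68 for Fasn, -1.39 for Gal3st1, -1.15 for Cers2, -0.90 for Elovl7, -0.85 for Elovl1 and -0.70 for Sptlc2. For Fa2h, Aspa and Degs1 it was -0.22, -0.13 and -0.0044, beside a median of -0.19 over all tested genes. The mitochondrial share and the worth of a fragment moved with this split, and their part in it was not tested. With replicates 2 and 3 only, the median difference of the members between groups was 0.96, with Ugt8 at 1.81, Fa2h at 1.40, Gal3st1 at 1.18, Elovl1 at 1.14 and Cers2 at 0.96.

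Genes with the nearest pattern over the 6 libraries were found by the root mean square difference of centred log2(FPKM + 1). For Ugt8 they were Slc15a4 (0.13), Cpm (0.14) and Hs3st1 (0.17). For Fa2h they were Lhfpl2 (0.21), S1pr5 (0.22), a sphingosine-1-phosphate receptor of oligodendrocytes, and Prkcq (0.23). For Gal3st1 they included Tmem189 (0.15), the desaturase that completes plasmalogens, and Mtch1 (0.16). Of the members, Fa2h was nearest to Ugt8 at 0.58 (rank 245), while Gal3st1 was at 1.15 (rank 5617). Nearest to Gal3st1 were Elovl1 at 0.31 (rank 21) and Cers2 at 0.39 (rank 95). By this measure Ugt8 was farther from Gal3st1 than from Fa2h.

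Other genes of the same pathways were counted from 7 lists written from pathway knowledge (112 genes in the table, 87 tested). Earlier results of these data were known when the lists were chosen. Of the 87, 40 were positive and 47 negative, the median log2 difference was -0.08, and 0 passed by limma with or without the block. At an unadjusted p under 0.05, 1 of 87 was higher and 1 lower without the block, beside 2.21% and 1.81% of all tested genes. With the block 4 of 87 were higher and 2 lower, beside 4.87% and 4.97%. All fibril libraries were above all controls for 6 of 87 (4.24% of all tested genes) and below for 3 of 87 (5.3%). Some of the list medians given below changed sign between settings. Without fibril replicate 1 those of ceramide synthesis, fatty acid synthesis and breakdown were 0.13, 0.09 and 0.06. Scaled without mitochondrial genes, that of ether lipid and peroxisome genes was -0.11, where the median of all tested genes was -0.30.

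In ceramide synthesis 4 of 10 tested genes were positive and the median was -0.19. The ceramide synthase family did not move as 1 group. Cers4, a synthase that prefers long acyl chains, measured 44.2, 20.9 and 24.7 FPKM without fibrils and 20.8, 14.7 and 1.81 FPKM with them, below every control (log2 difference -1.58; limma adjusted p = 0.96, and 0.448 with the block). Cers5 had a difference of 0.38, Cers6 of -0.61 and Cers3 was listed at 0 throughout. Cers1 was at 0.0159 FPKM in replicate 1 of the control and fibril group and at 19.4 to 34.4 FPKM in the other libraries. It shares a transcription unit with Gdf1, so its values are uncertain. Ormdl2 (0.81) and Ormdl1 (-0.87) encode related inhibitors of serine palmitoyltransferase. Both had overlapping groups (limma adjusted p = 0.96 without the block), and within number 1 both were higher with fibrils (0.36 and 0.61). Ormdl1 was listed at 0 in fibril replicate 3. Sptlc1, the partner subunit of Sptlc2, had -0.29.

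Elongation and desaturation held the 2 smallest p-values of the pathway genes. Hacd1, a dehydratase of the elongation cycle, measured 7.10, 5.65 and 4.82 FPKM without fibrils and 26.3, 13.5 and 16.1 FPKM with them (log2 difference 1.48; limma adjusted p = 0.885, and 0.216 with the block). Acsbg1, an acyl-CoA synthetase known in brain mainly from astrocytes, had 4.73, 6.52 and 7.97 FPKM against 0.376, 0.633 and 3.33 FPKM (-1.77; adjusted p = 0.948, and 0.216 with the block). Neither pair of groups overlapped. Acsl1, which activates long-chain fatty acids, had a difference of 0.80, and the stearoyl-CoA desaturase gene Scd had -0.48. The list median was 0.0018 over 20 genes, 10 of them positive, and changed sign under several settings. In the elongase family Elovl4 (-0.08) and Elovl5 (-0.52) were at 10.7 to 25.9 and 11.5 to 42.9 FPKM over all libraries, above Elovl7 in each. Elovl6 was listed at 0 throughout.

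Fatty acid synthesis genes were mixed, with 5 of 14 positive and a median of -0.13. Acaca, which makes the malonyl-CoA that Fasn uses, measured 8.43, 9.69 and 17.1 FPKM without fibrils and 4.49, 10.1 and 1.96 FPKM with them (-1.11; limma adjusted p = 0.96, and 0.5 with the block). Fibril replicate 2 overlapped the controls. Acss1, a mitochondrial acetyl-CoA synthetase, had -0.58, Slc25a1, the citrate carrier, 0.70, and the fatty acid binding protein gene Fabp5 0.61.

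Genes of other sphingolipid fates and of breakdown had medians of -0.26 (11 tested, 4 positive) and -0.07 (18 tested, 8 positive). Arsa encodes the arylsulfatase that removes the sulfate Gal3st1 adds. Its controls had 4.73, 3.44 and 2.56 FPKM and its fibril libraries 7.87, 5.50 and 6.15 FPKM, without overlap (log2 difference 0.73; limma adjusted p = 0.96, and 0.5 with the block). Galc, which removes the galactose that Ugt8 adds, had a difference of -0.49 and was listed at 0 in fibril replicate 1. Gltp, a glycolipid transfer protein gene, had 282, 254 and 244 FPKM against 439, 344 and 490.1 FPKM, also without overlap (0.69). St3gal5, which starts ganglioside synthesis, had 0.69, Sphk2 had 0.43, and St8sia1 and Samd8 had -0.63 and -0.62.

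Plasmalogens are ether lipids that are also abundant in myelin. Tmem189 measured 4.52, 16.7 and 21.0 FPKM without fibrils and 15.6, 30.6 and 71.3 FPKM with them, higher in 3 of 3 replicate numbers with overlapping groups (1.38; limma adjusted p = 0.96, and 0.249 with the block). It neighbours Ube2v1, with which it can form a joint transcript, so its values are uncertain. The list of ether lipid and peroxisome genes had a median of 0.20, with 8 of 10 positive. Agps, a peroxisomal enzyme of ether lipid synthesis, had -0.91, with 2.06 FPKM in fibril replicate 3 against 13.5 to 30.8 FPKM in the other 5. Pex7 had 0.55 and Far1 -0.07. Among acetylaspartate genes 1 of 4 tested was positive: Acy1, an aminoacylase, had 0.77, while Rimklb and Acy3 had -0.64 and -0.65.

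**Figure D4:**
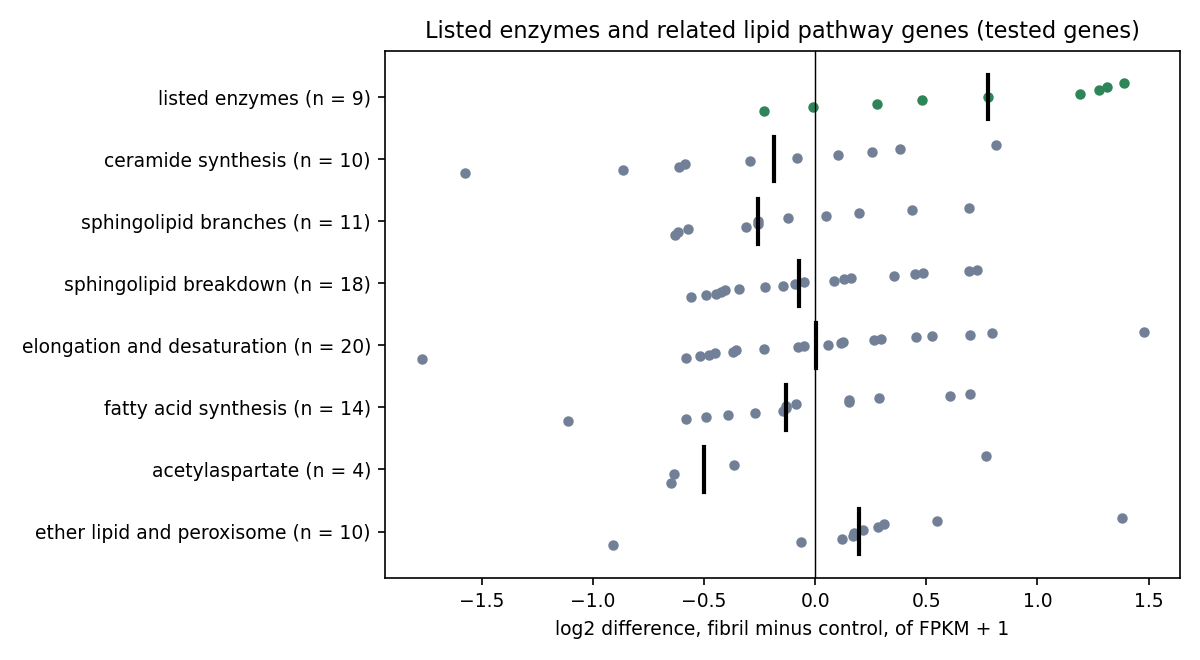
Log2 difference of FPKM + 1, fibril minus control, of each tested gene (dots) in the set of enzymes (green) and in 7 lists of related lipid genes (grey), with black bars at the medians. The median of the enzymes is 0.78 and those of the lists run from -0.50 (acetylaspartate) to 0.20 (ether lipid and peroxisome). Enzymes and lists were chosen with earlier results of these data known.

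The 12 markers of myelinating oligodendrocytes give the setting of these enzymes. Mbp, which encodes myelin basic protein, had a log2 difference of 3.94, Enpp6 3.66, Mag 3.55 and Cldn11 2.65. By limma 0 of these passed without the block (adjusted p = 0.078, 0.304, 0.228 and 0.224). By limma with the block Mbp, Enpp6 and Mag were called higher (adjusted p = 0.0267, 0.0435 and 0.0267, with Cldn11 at 0.0624). With the block and scaling without mitochondrial genes, 1 gene of all tested was called higher. At most 1 of these 3 therefore kept its call. The labels state no pairing by replicate number. Of the 12 markers 8 were tested and all 8 were positive, with a median of 2.18. The lowest was Mog at 0.55 and the next Tspan2 at 0.72, both under Ugt8, Gal3st1, Fa2h, Elovl1 and Cers2. Mog was at 0.615 to 3.14 FPKM, where the added 1 damps differences. By ratio of means Mog (2.17) was above Cers2 (1.94) and under the other enzymes just named (2.42 to 2.65). Tspan2, at 29.3 to 183 FPKM with overlapping groups, had a ratio of 1.65, under Cers2 as well. The 4 markers below the filter had differences of 1.20 (Nkx6-2), 0.48 (Mobp), -0.01 (Ermn) and -0.02 (Opalin), all with overlapping groups. Differences between genes were not tested. The precursor gene Pdgfra had -1.02, with overlapping groups (limma adjusted p = 0.96, and 0.5 with the block). Within numbers 1, 2 and 3 the Pdgfra difference was -0.13, -0.61 and -2.32. The 12 myelinating oligodendrocyte markers summed to 328 to 700.3 FPKM in controls and 1909.6 to 3329.6 FPKM with fibrils. Most of each sum was Mbp (58.5 to 68.4 FPKM in controls and 886 to 1168 with fibrils) and Cnp (220 to 466 and 708 to 1761).

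Markers of other cell types also differed between the libraries. The 10 astrocyte markers summed to 193 to 246 FPKM in controls and 98.7 to 254 FPKM with fibrils, the 11 microglia markers in the table to 1.50 to 46.4 and 11.9 to 61.7 FPKM, and the 10 neuron markers to 589 to 946 and 369 to 640.1 FPKM. Of 9 tested astrocyte markers 7 were negative, each lower in 3 of 3 replicate numbers, and the median log2 difference was -1.40. Gfap, the intermediate filament gene of astrocytes, was positive, with control libraries at 0.643, 0.370 and 0.733 FPKM and every fibril library above them (3.69, 6.20 and 24.8), and Aldoc gave 181 FPKM of the sum in fibril replicate 3. The median was 0.96 over 7 tested microglia markers and -0.61 over 10 neuron markers. None of the astrocyte markers passed by limma in either fit. The part of these cells in the enzyme differences was not tested. The 8 fibroblast and mural markers summed to at most 0.877 FPKM, with 3 listed at 0 throughout.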

How the data were processed

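Total RNA of 3 control and 3 fibril samples was sequenced from strand-specific Agilent libraries, per the labels' protocols. The deposited values are FPKM, 1 column per library, per the file headers. Per the submitters' processing notes, FastQC and Trimmomatic were used; aligner, quantifier and build: not given in the sources used here. FPKM are not counts, so no count model was run and depth is known only relatively, from ratios of values below 1 FPKM at which most genes coincided within 0.03 on the log2 scale.

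The 10766 genes that reached 1 FPKM in 3 or more libraries were tested as log2(FPKM + 1) with limma 3.58.1 in R 4.3.3 (mean-variance trend, two-sided, Benjamini-Hochberg over all genes, threshold 0.05). The fold changes of low genes are understated on this scale. The design named a count test only in case the file held counts. Libraries share replicate numbers, and deviations of same-numbered libraries from their group means correlated at 0.747, 0.364 and 0.216 for numbers 1, 2 and 3. All exceeded 0.1, so a fit with the number as a block is given too. For numbers 2 and 3 the crosswise correlations were higher (0.50 for control 3 with fibril 2, 0.433 for control 2 with fibril 3). The labels state no pairing. The block fit, the differences within replicate numbers and the counts over 3 of 3 numbers all depend on the same-number pairing. The fit was checked on simulated data.

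Members and lists were chosen with earlier results of these data known. Named genes were the 10 members, the 2 smallest p-values per direction and pathway list, 4 myelin genes, Pdgfra, and the 3 nearest patterns to Ugt8, Fa2h and Gal3st1, of which 1 known only by a clone name is left out. Some items that this rule or the marker lists cover are not reported here. Cers1, Cers3, Cers6, Sptlc1, Elovl4, Elovl5, Elovl6 and Tspan2 were added after their values were seen. Ratios were compared with an exact permutation test.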

Additional observations from a re-analysis of the deposited data

How the results depend on the processing

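Under 16 alternatives 0 members passed in either direction wherever they were tested. Ugt8, Gal3st1, Fa2h, Cers2, Elovl1 and Elovl7 stayed positive in every one that tested them. Over all genes, 12 rose with the replicate block, 1 with the block and scaling without mitochondrial genes, and 44 rose and 7 fell with the block and replicates 1 and 2 only. With single libraries left out, 0 to 3 genes were called higher (3 when fibril replicate 3 was absent) and 0 lower. The median of the members was 1.24 with a pseudocount of 0.1 and 0.45 to 1.25 with 1 library left out (1.25 without fibril replicate 1). Degs1 turned to -0.025 when scaled without mitochondrial genes, with or without the block. Sptlc2 turned to 0.039 under quantile normalization, 0.0014 with a pseudocount of 0.1 and 0.35 with the block and replicates 1 and 2 only, and ran from -0.39 to 0.31 with 1 library left out. Fasn turned to 0.25 with the block and replicates 1 and 2 only, and ran from -0.93 to 0.43 with 1 library left out. The causes were not tested. The block changed no call of a member or of a pathway gene. Depth is known only relatively, and 1 fragment was worth most in both replicate 1 libraries.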
